A study of Mus musculus with 16 samples.

Results

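Described here are 10 well-known transcriptional target genes, measured on 16 single-colour mouse arrays: Mdm2, Cdkn1a, Ccng1, Bbc3, Pmaip1, Phlda3, Sesn1, Sesn2, Trp53inp1 and Zmat3. They were taken by name as known p53 targets, with earlier results of these arrays in view, and all 10 were measured among 30176 genes with a probe set that names 1 gene. Sesn1, Trp53inp1 and Cdkn1a fell on the arrays labelled Camkk2 null in both cell populations of the study. Mdm2, Ccng1, Bbc3, Pmaip1, Phlda3, Sesn2 and Zmat3 differed by at most 1.22-fold between the genotype labels in either population.

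The arrays held KSL cells labelled Camkk2 null (KO), KSL cells labelled WT, KL cells labelled Camkk2 null and KL cells labelled WT, with 4 arrays each. By the definition of the sort, KSL cells are lineage-negative bone marrow cells with c-Kit and Sca-1 on their surface. Such cells are a mixture of blood stem cells and multipotent progenitors. KL cells are defined as lineage-negative, c-Kit-positive and Sca-1-negative, a mixture of committed progenitors. The null allele is a deletion of Camkk2, which encodes a calcium/calmodulin-dependent kinase that activates AMPK, and it is carried by every cell of the animal. Bone marrow came from 16 mice of each genotype for 4 biological replicates, so a replicate may hold cells of several mice. No treatment, age or sex is given, and p53 targets are thus described here in cells for which no irradiation is listed.

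The values are log2 probe set signals, on which a difference of 1 is a factor of 2. A gene was called higher or lower where its adjusted p, from limma with Benjamini-Hochberg adjustment over all 30176 genes, was under 0.05 and its fold at least 1.5, a log2 difference of 0.58. Differences are null label minus WT label. The array medians lay between 5.01 and 5.12. Camkk2 itself did not follow the labels: it read 7.14 to 7.93 in KSL labelled null, against 7.11 to 8.02 in KSL labelled WT (log2 difference -0.13, SE 0.24, adjusted p = 0.714, limma), and 7.08 to 7.83 in KL labelled null, against 6.89 to 7.86 in KL labelled WT (-0.05, SE 0.24, adjusted p = 0.922, limma). In each of the 4 groups Camkk2 read higher on replicates 1 and 2 than on replicates 3 and 4, a spread that enters these SEs. Whether the probe set reads the deleted part of the gene is not given in the sources used here. Every direction below therefore rests on the labels. Kit, the receptor used in the sort, read 9.22 to 9.41 in KSL labelled null and 9.82 to 10.54 in KSL labelled WT. Sca-1, encoded by Ly6a, and Trp53, which encodes p53, were not analysed here. The 7 stem cell markers measured did not, as a mean, read higher in KSL than in KL. Under the WT label their mean log2 levels were 6.596 to 6.85 in KSL and 6.81 to 6.96 in KL. Under the null label they were 5.89 to 5.95 in KSL and 5.96 to 6.09 in KL. Taken singly, the difference KSL minus KL was above zero for 0 of the 7 under the WT label. It was above zero for 4 and below zero for 3 under the null label, with a median of 0.02. The cell type contrasts below thus also rest on the labels, and are not shown to set stem cells against committed progenitors.

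The p53 protein is a transcription factor that is held at a low level in unstressed cells and accumulates after DNA damage, oncogene activation or metabolic stress. Its targets arrest the cell cycle, set off apoptosis, limit oxidative damage and restrain growth, and some of them act back on p53. In blood stem cells p53 is known for keeping cells quiescent and for killing cells after radiation. The targets are not driven by p53 alone: Cdkn1a, the sestrins and Trp53inp1 are also known targets of other factors, FOXO proteins among them.

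Promoter sequences were looked up because 3 of the genes fell together. The p53 response element consists of a pair of 10-base half-sites with up to 13 bases between them, and RefSeq windows (GRCm38.p6) of 250 bases before to 50 bases after each annotated start were searched for a pair, with both strands covered because the half-site is palindromic. Windows of 7 of the 10 genes were searched, 11 windows in all. No window was at hand for Zmat3 or for Trp53inp1, which is among the 3 genes that fell. Pmaip1 was not searched. Of all 32851 windows, 24 (0.0731%) held a pair that matched the half-site exactly. With up to 1 mismatch allowed in each half-site, but not at its fixed C or G, 890 (2.71%) held a pair. Cdkn1a held 1 exact pair, beginning at positions -73 and -51 from the start, and a further pair with a mismatch, beginning at -51 and -41. Ccng1 held a pair with a mismatch, beginning at positions -195 and -185. These 2 stretches are shown because no other searched window of the 10 genes held a pair. Capitals mark the half-sites and each stretch runs 5′ to 3′ on the strand of its gene.
Cdkn1a, chr17:29090886-29090967, plus strand: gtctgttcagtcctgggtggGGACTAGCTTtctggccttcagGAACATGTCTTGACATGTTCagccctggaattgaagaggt
Ccng1, chr11:40755442-40755501, minus strand: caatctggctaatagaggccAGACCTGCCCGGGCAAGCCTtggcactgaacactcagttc
The second annotated start of Cdkn1a, 2790 bases downstream, and the windows of Sesn1, Sesn2, Bbc3, Mdm2 and Phlda3 held no such pair. A match is a run of letters and not a bound site, and response elements of p53 targets often lie in introns or further upstream.

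In KSL, Sesn1 and Trp53inp1 had the largest differences of the 10 genes and Cdkn1a the next. Of the 10, 3 were called lower and 0 higher, against 3.7% of all genes called lower and 1.31% called higher. By adjusted p alone, without the fold minimum, 3 of the 10 were lower, against 10.5% of all genes, and 2 were higher, Sesn2 and Zmat3, against 8.5% of all genes. On all 4 null arrays against all 4 WT arrays, without overlap, 3 of the 10 lay lower, against 11.8% of all genes, and 2 lay higher, Phlda3 and Zmat3, against 14.9%. The median log2 difference of the 10 genes was 0.05, the same as the 0.05 of all genes, with 4 of the 10 below zero and 6 above it.

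Sesn1 belongs to the sestrins, stress-induced proteins known for limiting oxidative damage and for restraining mTORC1, in part through AMPK. It read 7.12, 7.12, 6.95 and 6.90 in KSL labelled null, against 8.55, 8.50, 8.36 and 8.74 in KSL labelled WT. Each null array lay more than 1 log2 unit below each WT array. Sesn1 averaged 7.02 ± 0.12 in KSL labelled null and 8.54 ± 0.16 in KSL labelled WT (SD, n = 4 each), a fold of 2.86 lower (SE 0.0872 on the log2 scale, adjusted p = 3.74e-06, limma). Its difference ranked 185th by size of the 30176 genes.

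Trp53inp1 encodes a stress-induced nuclear protein known for assisting the phosphorylation of p53 and for a part in autophagy. It read 5.96, 5.82, 5.71 and 5.79 in KSL labelled null, against 7.34, 7.31, 6.76 and 7.30 in KSL labelled WT. The third WT array lay apart from the other WT arrays, and still above all null arrays. The means were 5.82 ± 0.10 in KSL labelled null and 7.18 ± 0.28 in KSL labelled WT, 2.56-fold lower under the null label (SE 0.125, adjusted p = 6.41e-05, limma).

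Cdkn1a encodes p21, the inhibitor of cyclin-dependent kinases through which p53 arrests cells in G1. It read 6.64, 6.93, 6.87 and 7.30 in KSL labelled null, against 7.63, 7.47, 7.78 and 7.57 in KSL labelled WT. The groups did not overlap, with 1 null array close to the lowest WT array. The means were 6.93 ± 0.27 and 7.61 ± 0.13 under the null and WT labels, a 1.60-fold decrease (SE 0.125, adjusted p = 0.0043, limma). Without the lowest null array the log2 difference was -0.58, adjusted p = 0.00773, just under the fold minimum.

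**Figure D1:**
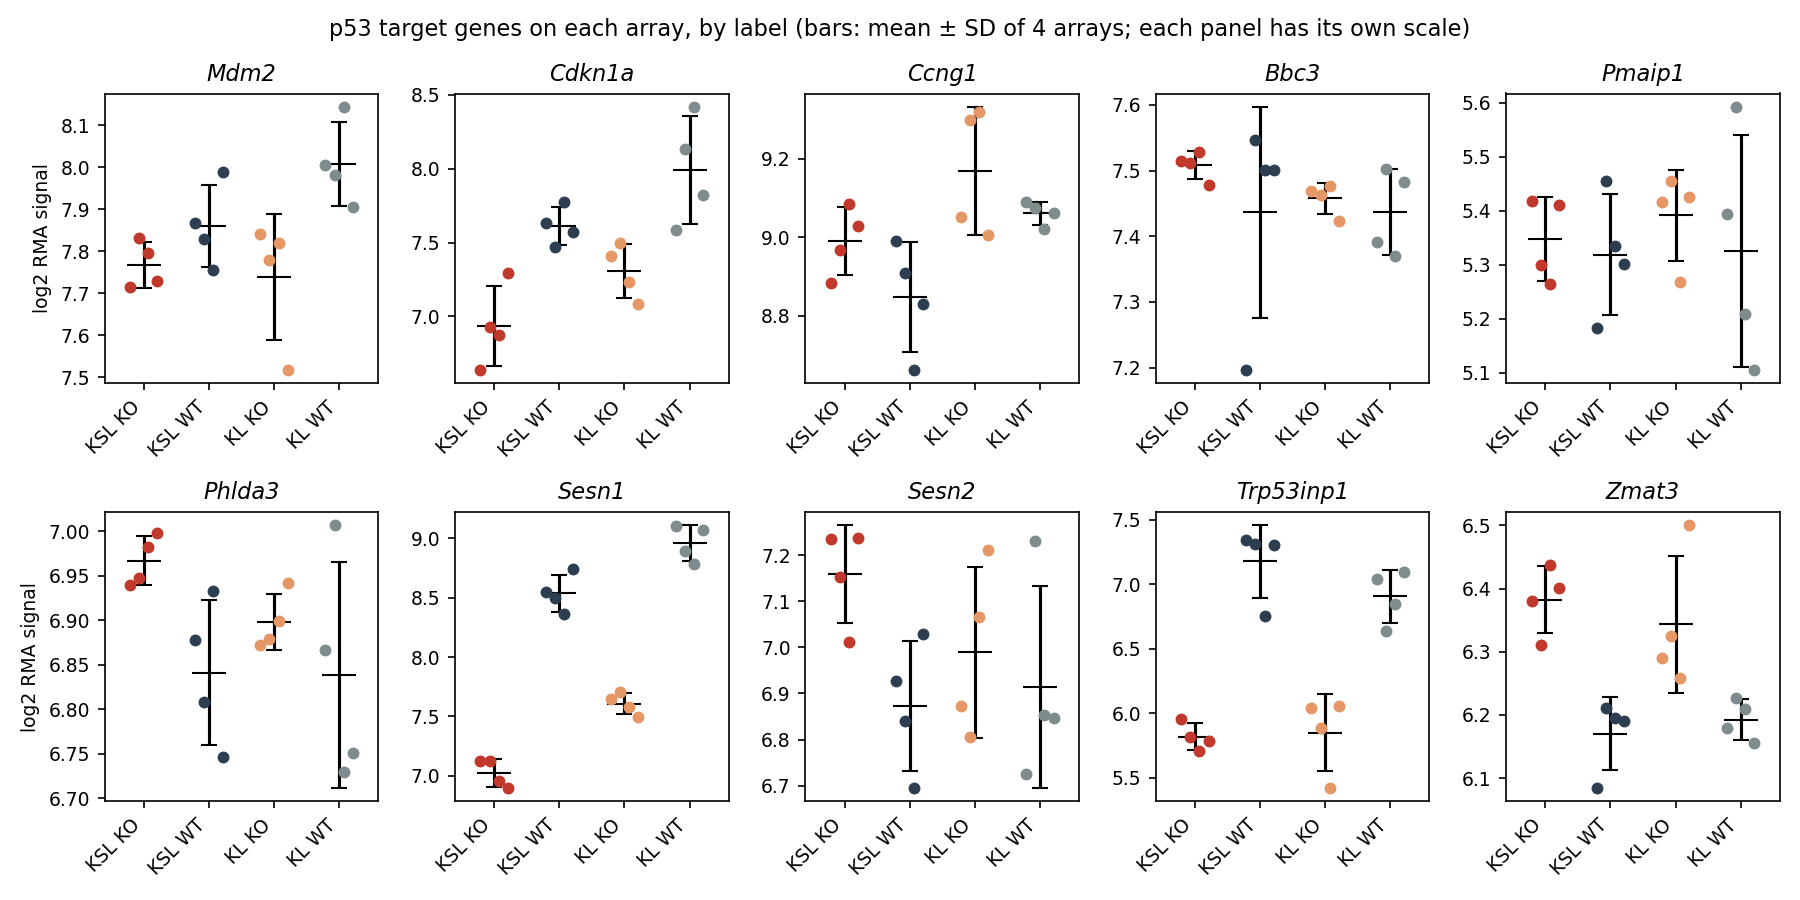
Log2 signal of the 10 p53 target genes on each of 16 arrays (vertical axis, own scale in each panel) by cell type and genotype label (horizontal axis). Points are arrays and bars the mean ± SD of 4 arrays; Sesn1, Trp53inp1 and Cdkn1a lie lower on every null array than on every WT array of the same cell type, and the other panels span less than 1 log2 unit each.

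Sesn2, the second sestrin and also a known target of ATF4 in nutrient stress, went the other way from Sesn1. Its values were 7.23, 7.15, 7.01 and 7.24 in KSL labelled null, against 6.93, 6.84, 6.69 and 7.03 in KSL labelled WT. One null array lay within the range of the WT arrays. The log2 difference was 0.29 (SE 0.0807, adjusted p = 0.0346, limma), a fold of 1.22, and it was past the threshold on p but not on fold. This call was lost in 8 of 15 alternatives, 6 of them the loss of any single array other than null replicate 3 or WT replicate 4, with adjusted p values up to 0.0842.

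Zmat3, which encodes a zinc finger protein that binds RNA, read 6.38, 6.31, 6.44 and 6.40 in KSL labelled null, against 6.08, 6.21, 6.19 and 6.19 in KSL labelled WT. All null arrays lay above all WT arrays. The difference was small, 0.21 on the log2 scale (SE 0.0512, adjusted p = 0.0173, limma), and missed the threshold without the third null array (adjusted p = 0.0534).

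Mdm2 encodes the ubiquitin ligase that degrades p53 and is itself induced by it, so that it closes a feedback loop. In KSL it read 7.71, 7.83, 7.79 and 7.73 under the null label, against 7.87, 7.83, 7.76 and 7.99 under the WT label. The groups overlapped, and the interval of the log2 difference ran from -0.23 to 0.04 (95%, limma, adjusted p = 0.288). Ccng1, which encodes cyclin G1, a partner of protein phosphatase 2A that acts on Mdm2, read 8.88 to 9.08 in KSL labelled null against 8.66 to 8.99 in KSL labelled WT. Its interval ran from -0.03 to 0.31 (adjusted p = 0.21, limma).

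The 3 genes of apoptosis and survival did not pass the test in KSL. Bbc3 encodes PUMA, the BH3-only protein known as a main killer of blood progenitors after radiation, and read 7.48 to 7.53 in KSL labelled null against 7.20 to 7.55 in KSL labelled WT. The interval of its difference was -0.10 to 0.24 (adjusted p = 0.516, limma). Pmaip1, which encodes the BH3-only protein NOXA, read 5.26 to 5.42 under the null label and 5.18 to 5.45 under the WT label. Its interval was -0.12 to 0.18 (adjusted p = 0.771, limma). Phlda3, which encodes an inhibitor of AKT, read 6.94 to 6.998 and 6.75 to 6.93 under the null and WT labels, without overlap, and its difference of 0.13 (interval 0.01 to 0.24) had an adjusted p of 0.124 (limma). These 3 intervals leave no room for a 1.5-fold difference in signal in either direction. Pmaip1 averaged 5.35 over the 16 arrays, near the array medians of 5.01 to 5.12 and under the filter at 6. With a signal that dim, its interval does not exclude a 1.5-fold difference in its RNA.

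In KL the same 3 genes were called lower. Of the 10, 3 were lower and 0 higher, against 2.72% of all genes called lower and 1.28% called higher. By adjusted p alone 4 of the 10 were lower, with Mdm2 added, against 8.69% of all genes, and 0 were higher, against 7.13%. On all arrays, 4 of the 10 lay lower under the null label, against 10.2% of all genes, and 1, Zmat3, lay higher, against 10.7%. The median log2 difference was 0.04 for the 10 genes and 0.03 for all genes.

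Sesn1 read 7.65, 7.71, 7.58 and 7.50 in KL labelled null, against 9.10, 8.89, 8.78 and 9.07 in KL labelled WT. As in KSL, the labels were more than 1 log2 unit apart on every pair of arrays. The means were 7.61 ± 0.09 in KL labelled null and 8.96 ± 0.15 in KL labelled WT (SD, n = 4 each), 2.56-fold lower (SE 0.0792, adjusted p = 7.24e-06, limma).

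Trp53inp1 read 6.04, 5.89, 5.42 and 6.05 in KL labelled null, against 7.04, 6.64, 6.85 and 7.09 in KL labelled WT. The null arrays were again all lower, with the third null array the lowest of all 16. The fold was 2.08 (SE 0.148, adjusted p = 0.00104, limma).

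Cdkn1a read 7.41, 7.50, 7.23 and 7.09 in KL labelled null, against 7.59, 8.13, 8.42 and 7.82 in KL labelled WT. The groups came within 0.1 log2 units of each other without overlapping, and the WT arrays were widely spread. The means were 7.31 ± 0.18 in KL labelled null and 7.99 ± 0.36 in KL labelled WT, a fold of 1.61 lower (SE 0.165, adjusted p = 0.0189, limma). This was the least stable of the 6 calls between genotype labels: it was lost without WT replicate 2 or 3 (log2 differences -0.64 and -0.54), without null replicate 3 or 4 (-0.66 and -0.61), and by the methods' t-test after adjustment (0.0924).

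Mdm2 read 7.84, 7.78, 7.82 and 7.52 in KL labelled null, against 8.005, 7.98, 8.14 and 7.90 in KL labelled WT. No null array reached the lowest WT array. The log2 difference of -0.27 (SE 0.0807) had an adjusted p of 0.0497 (limma), at the edge of the threshold, and without any one of the 8 arrays it lay between 0.0512 and 0.12. Zmat3 read 6.26 to 6.50 in KL labelled null and 6.15 to 6.23 in KL labelled WT, a difference of 0.15 with adjusted p = 0.124 (limma).

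Sesn2, which was past the threshold on p in KSL, overlapped between labels in KL, at 6.87, 6.81, 7.06 and 7.21 under the null label and 6.73, 7.23, 6.85 and 6.85 under the WT label. Its interval was -0.19 to 0.34 (adjusted p = 0.728, limma). The other members of the group had differences of 0.11 for Ccng1, 0.02 for Bbc3, 0.07 for Pmaip1 and 0.06 for Phlda3, with adjusted p values from 0.4 to 0.815 (limma).

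**Figure D2:**
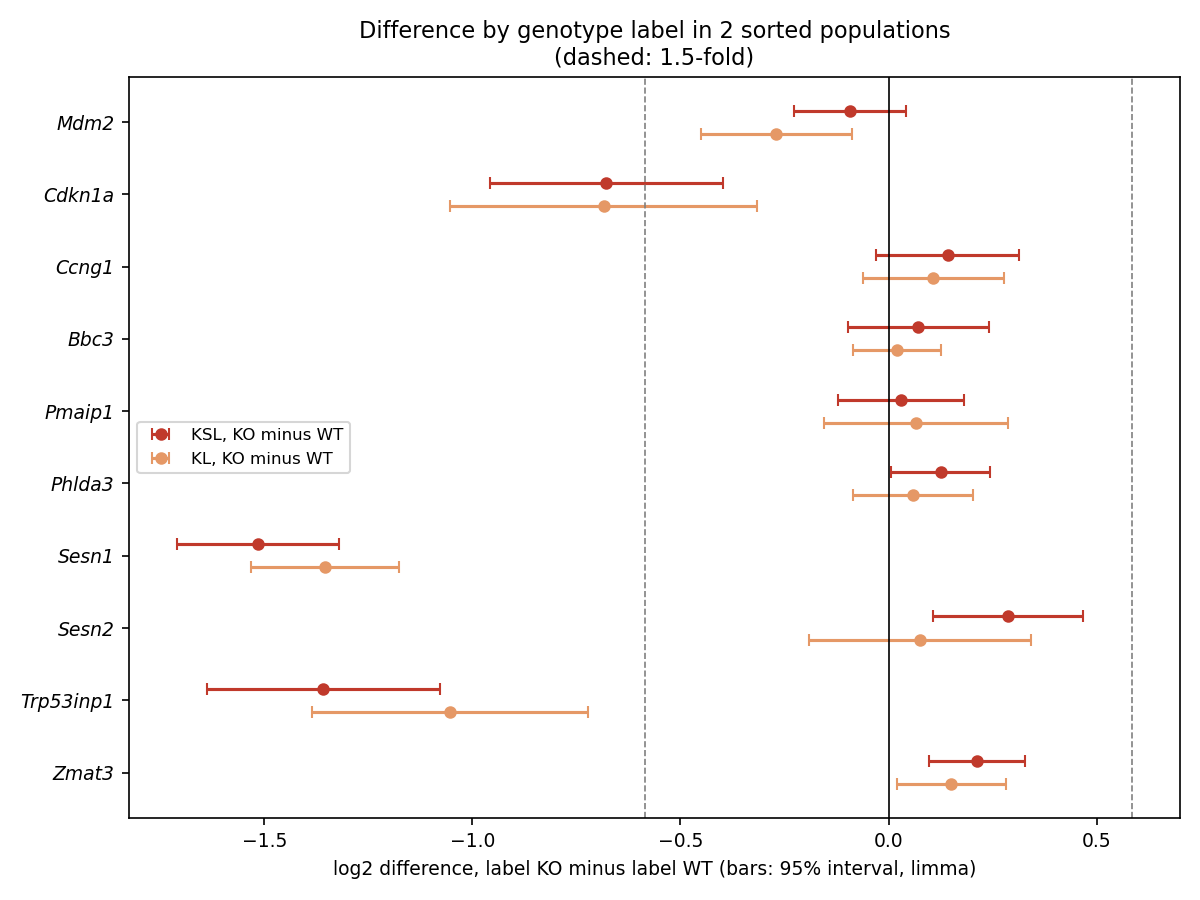
Log2 difference between the genotype labels, null minus WT (horizontal axis), of the 10 p53 target genes (vertical axis) in KSL and KL. Points are limma estimates, bars 95% intervals and dashed lines a fold of 1.5; Sesn1, Trp53inp1 and Cdkn1a lie to the left of the lower line in both populations and the other 7 genes between the lines.

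The difference between the labels was not shown to differ between KSL and KL for any of the 10 genes. The interaction estimates, KSL difference minus KL difference, ran from -0.30 for Trp53inp1 to 0.21 for Sesn2, with adjusted p values from 0.814 to 0.997 (limma). Over all genes 0% passed this test, with 1867 genes and none of the 10 at an unadjusted p under 0.05. The intervals were not narrow: that of Trp53inp1 ran from -0.75 to 0.14 and that of Sesn1 from -0.42 to 0.10.

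Between the cell types, Sesn1 was the gene that stood apart. It was lower in KSL than in KL under the null label, by 1.5-fold (log2 difference -0.59, SE 0.0871, adjusted p = 0.00437, limma), at the fold minimum. Without KSL replicate 3 or 4 or KL replicate 1 or 2 of the null label it was -0.57 to -0.54, under the minimum, with adjusted p values up to 0.0201. It was the only 1 of the 10 called lower there, against 0.229% of all genes. Sesn1 was also the 1 gene whose KSL arrays all lay below the KL arrays under the null label, against 4.42% of all genes, and Bbc3 was the 1 gene whose KSL arrays all lay above, against 4.49% of all genes, with a difference of 0.05 and adjusted p = 0.793 (limma). Under the WT label Sesn1 had a difference of -0.42 (SE 0.0871, adjusted p = 0.0918, limma), and none of the 10 passed the threshold on p, against 0.109% of all genes. Without KSL replicate 4 of the WT label the adjusted p of Sesn1 was 0.0403. Sesn1 and Ccng1 lay lower on all KSL arrays under the WT label, 2 of 10 against 1.89% of all genes, with a difference of -0.21 for Ccng1 (adjusted p = 0.462, limma).

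The order of the 4 groups was clearest for Sesn1, which ran from KSL labelled null, lowest, through KL labelled null and KSL labelled WT to KL labelled WT, with no array of a group reaching the next. Cdkn1a had the same order, but each group overlapped its neighbours. For Trp53inp1 the order was KSL labelled null, KL labelled null, KL labelled WT and KSL labelled WT, and the only neighbours that did not overlap were the 2 in the middle.

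Nearness in pattern over the 16 arrays was measured by the root mean square distance of values centred on their mean. A filter on names left out predicted genes and small RNAs, and with them all symbols that begin with Rn. Among the rest, the genes nearest to each of the 3 were sought. They were Krt18, an epithelial keratin, and Lyz2, the lysozyme of myeloid cells, for Sesn1 (0.16 and 0.17 log2 units). For Trp53inp1 they were Clnk, an adaptor of immune receptors, and Il15, a cytokine that acts on lymphoid cells (0.16 and 0.18). For Cdkn1a they were Rhob, a small GTPase, and Hadh, an enzyme of fatty acid oxidation (0.16 and 0.17). Krt18 read 6.93 to 7.14 in KSL labelled null, against 8.35 to 8.77 in KSL labelled WT, and 7.49 to 7.84 in KL labelled null, against 8.89 to 9.20 in KL labelled WT. It had the 4 separate levels of Sesn1 in the same order, a likeness for which it was picked on these same arrays. Clnk read 5.27 to 5.41 in KSL labelled null, against 6.39 to 6.92 in KSL labelled WT, a split by genotype label with overlap between the cell types.

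Genes that act on p53 were measured for 24 of 25 listed. In KSL 2 were lower and 0 higher, against 3.7% and 1.31% of all genes. In KL 2 were lower and 0 higher, against 2.72% and 1.28% of all genes. The medians were -0.0049 in KSL and 0.01 in KL. The called genes were Ppp1r13b and Crebbp in both populations. By adjusted p alone Trp53bp1 was lower and Daxx higher as well in KSL, and Trp53bp1 and Kat5 lower and Cop1 higher in KL. Of all genes, 10.5% were lower and 8.5% higher by adjusted p alone in KSL, and 8.69% and 7.13% in KL. Ppp1r13b encodes ASPP1, which steers p53 to promoters of apoptosis genes, and read 6.83 to 7.20 in KSL labelled null, against 7.76 to 7.84 in KSL labelled WT, a log2 difference of -0.78 (SE 0.0748, adjusted p = 8.17e-05, limma). In KL it read 7.09 to 7.38 under the null label and 7.95 to 8.08 under the WT label (-0.79, adjusted p = 6.37e-05, limma). Both differences lay outside the spread of the arrays.

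Crebbp, which encodes the acetyltransferase CBP, a coactivator of p53 and of many other factors, read 7.52 to 7.95 in KSL labelled null, against 8.19 to 8.67 in KSL labelled WT (-0.69, SE 0.114, adjusted p = 0.00226, limma). In KL it read 7.73 to 7.97 under the null label and 8.27 to 8.68 under the WT label, a difference of -0.62 (adjusted p = 0.00197, limma) that was -0.54 without the first WT array. Mdm4, the partner of Mdm2 in restraining p53, differed by 0.02 in KSL (adjusted p = 0.903, limma) and 0.17 in KL (0.335). Ppm1d, the phosphatase WIP1 that resets p53, differed by -0.23 in KSL (0.131) and -0.03 in KL (0.826).

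Of a longer list of p53 targets, 39 of 43 were measured. In KSL 3 were lower and 1 higher, against 3.7% and 1.31% of all genes. By adjusted p alone 11 were lower and 6 higher, against 10.5% and 8.5% of all genes, and the median of the list was -0.07. In KL 5 were lower and 0 higher, against 2.72% and 1.28% of all genes. By adjusted p alone 12 were lower and 4 higher there, against 8.69% and 7.13% of all genes, with a median of -0.08. The 5 in KL were Ndn, Sesn3, Btg2, Plk2 and Ephx1, of which the last 3, named after their values were seen, differed by -1.08, -0.88 and -0.63. Genes of the list thus passed the test in both directions, and most were not called.

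Sesn3, the third sestrin and one better known as a target of FOXO proteins, had the largest difference of the list in KSL. It read 4.85, 3.86, 5.41 and 5.23 in KSL labelled null, against 8.09, 7.05, 6.67 and 7.81 in KSL labelled WT. Both groups were widely spread but well apart, and the log2 difference was -2.57 (SE 0.38, adjusted p = 0.00118, limma), a fold of 5.92. In KL it read 5.93, 5.42, 5.59 and 5.58 under the null label, against 7.89, 7.40, 7.34 and 7.37 under the WT label (-1.87, SE 0.139, adjusted p = 2.86e-05, limma). All null values of Sesn3 lay under 6, and those in KSL lay around the array medians of 5.01 to 5.12. With null signals that dim, the fold in signal does not give the fold in its RNA. Of the 3 sestrins, then, Sesn1 and Sesn3 were lower under the null label in both populations, and Sesn2 was not.

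Ndn encodes necdin, a growth suppressor of quiescent blood stem cells. It read 4.78 to 5.17 in KSL labelled null, against 6.63 to 7.01 in KSL labelled WT (-1.87, SE 0.114, adjusted p = 5.23e-06, limma), and 4.71 to 4.92 in KL labelled null, against 6.39 to 7.60 in KL labelled WT (-2.19, adjusted p = 9.81e-05, limma). The null values of Ndn also lay near the array medians of 5.01 to 5.12, so the size of its fold has the same limit. Tap1, the peptide transporter of antigen presentation, read 8.25 to 8.62 in KSL labelled null, against 9.22 to 9.50 in KSL labelled WT (-0.86, SE 0.087, adjusted p = 1.1e-04, limma). In KL its difference was -0.55 (adjusted p = 5.47e-04, limma), a 1.46-fold change under the fold minimum.

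Gadd45a, a stress gene of growth arrest and DNA repair, was the 1 gene of the list called higher in KSL. It read 8.27, 8.34, 8.31 and 8.32 in KSL labelled null, against 7.56, 7.79, 7.76 and 7.75 in KSL labelled WT. The groups were well apart, and the log2 difference was 0.60 (SE 0.0588, adjusted p = 9.64e-05, limma), or 0.54 without the first WT array. In KL it was 0.57 (adjusted p = 0.00228, limma), a fold of 1.48 that missed the minimum.

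**Figure D3:**
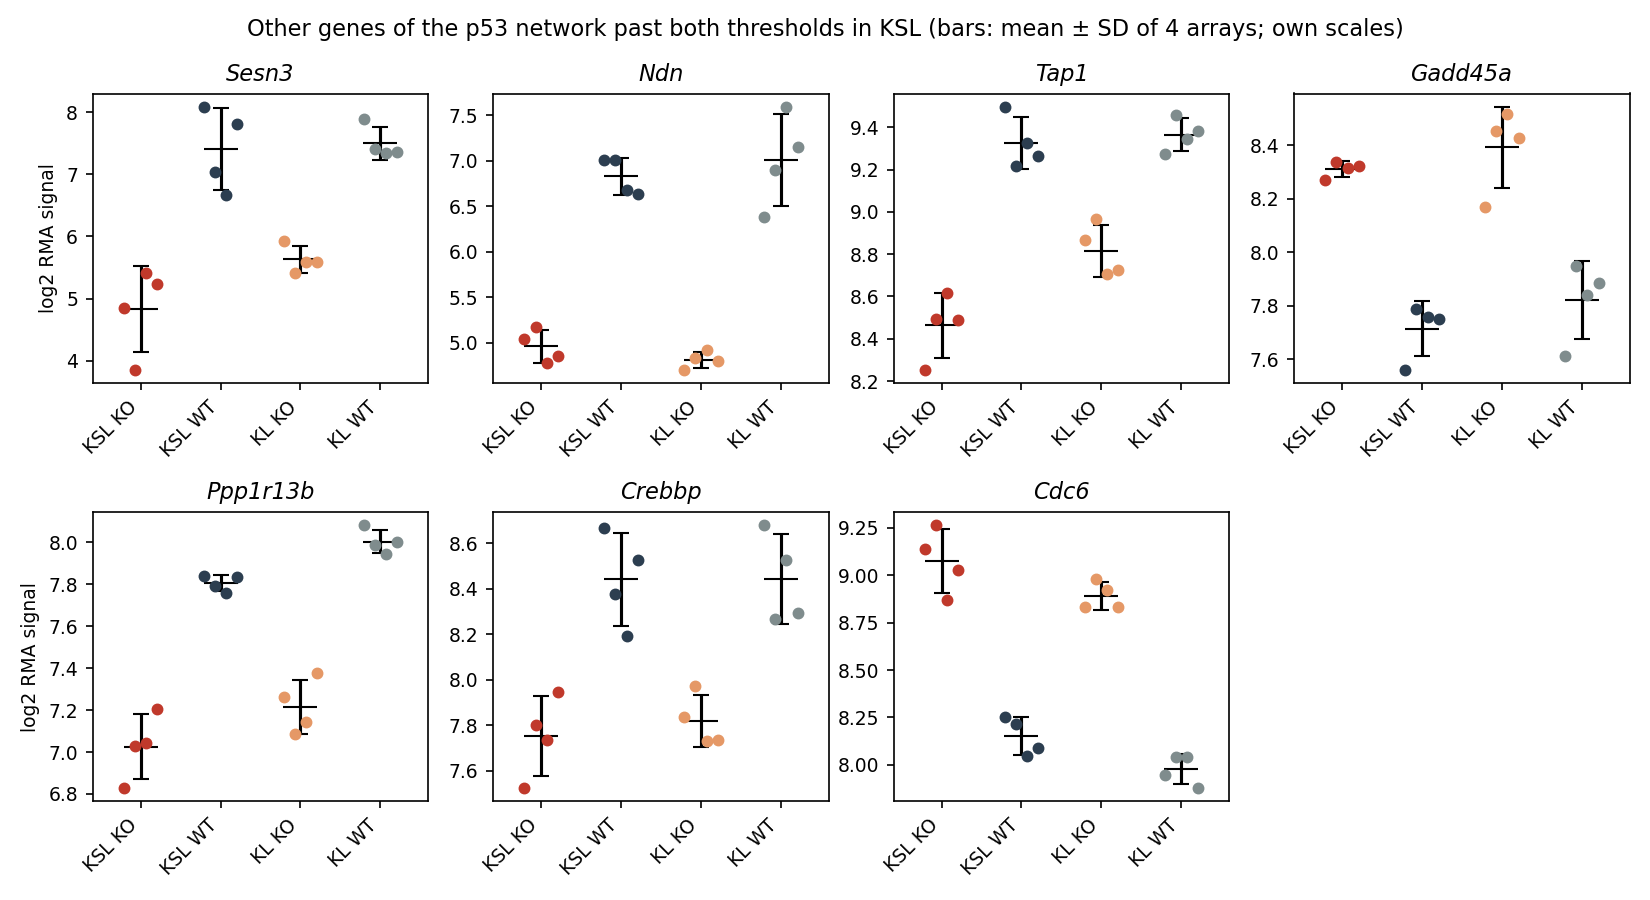
Log2 signal of the 7 other genes of the p53 network called in KSL, on each array (vertical axis, own scale in each panel) by cell type and genotype label. Points are arrays and bars the mean ± SD of 4 arrays; Gadd45a and Cdc6 are higher on the null arrays and the other 5 lower, in KSL and in KL.

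Cell cycle genes that p53 and p21 repress through the DREAM complex were measured for 12 of 15 listed. In KSL 0 were lower and 1 was higher, against 3.7% and 1.31% of all genes. By adjusted p alone 1 was lower and 3 higher, against 10.5% and 8.5% of all genes, with a median of 0.13. In KL 0 were lower and 1 higher, against 2.72% and 1.28% of all genes. By adjusted p alone 1 was lower and 5 higher there, against 8.69% and 7.13% of all genes, with a median of 0.26. Kif23 was the lower one in both, and Mybl2 and Plk1 were among the higher ones in both, joined by Bub1 and Aurkb in KL. The gene called in both was Cdc6, which loads the replicative helicase onto origins: 8.87 to 9.26 in KSL labelled null, against 8.05 to 8.25 in KSL labelled WT (0.92, SE 0.0871, adjusted p = 7.49e-05, limma), and 8.83 to 8.98 in KL labelled null, against 7.88 to 8.04 in KL labelled WT (0.91, adjusted p = 1.15e-05, limma).

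**Figure D4:**
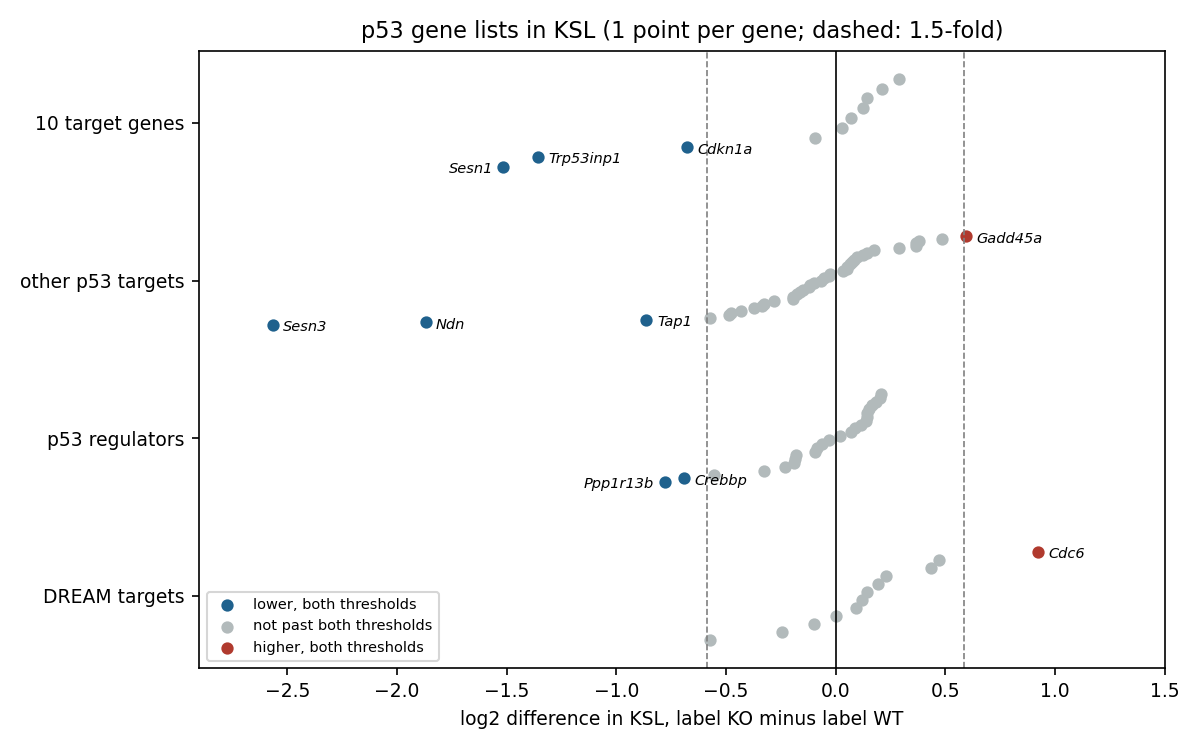
Log2 difference in KSL, null minus WT label (horizontal axis), of the 10 target genes, 39 other p53 targets, 24 regulators of p53 and 12 DREAM targets (rows, 1 point per gene). Dashed lines mark a fold of 1.5 and named points passed both thresholds; most genes of each list lie between the lines, on both sides of 0.

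Other genes differed with the same labels. The genes of handling and stress, 8 measured, mostly immediate early genes, had mean log2 levels of 6.80 to 7.02 in KSL labelled null, against 7.20 to 7.71 in KSL labelled WT, and of 7.76 to 7.94 in KL labelled null, against 8.07 to 8.67 in KL labelled WT. Of the 8, Fos, Fosb, Jun, Ier2 and Dusp1 were called lower in KSL, and the same without Ier2 in KL. Hspa1a, a heat shock gene, differed by 0.17 in KSL and 0.29 in KL, Atf3 by 0.18 and -0.04, and Egr1 by -0.11 and -0.41, none of them called. Stem cell markers, 7 measured, averaged 5.89 to 5.95 in KSL labelled null, against 6.596 to 6.85 in KSL labelled WT, and 5.96 to 6.09 in KL labelled null, against 6.81 to 6.96 in KL labelled WT, with Hlf and Meis1 called lower in KSL and these and Mecom in KL. Erythroblast markers, 4 measured, averaged 8.62 to 8.80 in KSL labelled null, against 6.51 to 6.89 in KSL labelled WT, and 8.10 to 8.48 in KL labelled null, against 6.24 to 6.50 in KL labelled WT, with Epor, Klf1 and Rhag called higher in each. Neutrophil markers, 6 measured, averaged 6.61 to 7.05 in KSL labelled null and 5.63 to 6.26 in KSL labelled WT, and 6.04 to 6.62 in KL labelled null and 5.54 to 5.89 in KL labelled WT. Of these S100a8 and S100a9 were called higher in KSL, by 3.66 and 1.60 on the log2 scale, and S100a8 in KL, by 3.27, whereas Ngp, Ltf, Camp and Ly6g differed by -0.12 to 0.13 and were not called. Of the lists for T and NK cells, B cells, macrophages, megakaryocytes, mast cells with basophils and eosinophils, and stroma, Klrd1, Cd68, Itgam and Prss34 were called lower in KSL and Cpa3, Prg2 and Epx higher in KL. Kit was lower by 0.75 on the log2 scale in KSL (adjusted p = 0.00456, limma) and by 0.64 in KL (adjusted p = 1.82e-04, limma). The part of these shifts in the levels of Sesn1, Trp53inp1 and Cdkn1a was not tested. In bulk RNA, fewer cells of a type and less RNA of a gene per cell cannot be told apart.

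**Figure D5:**
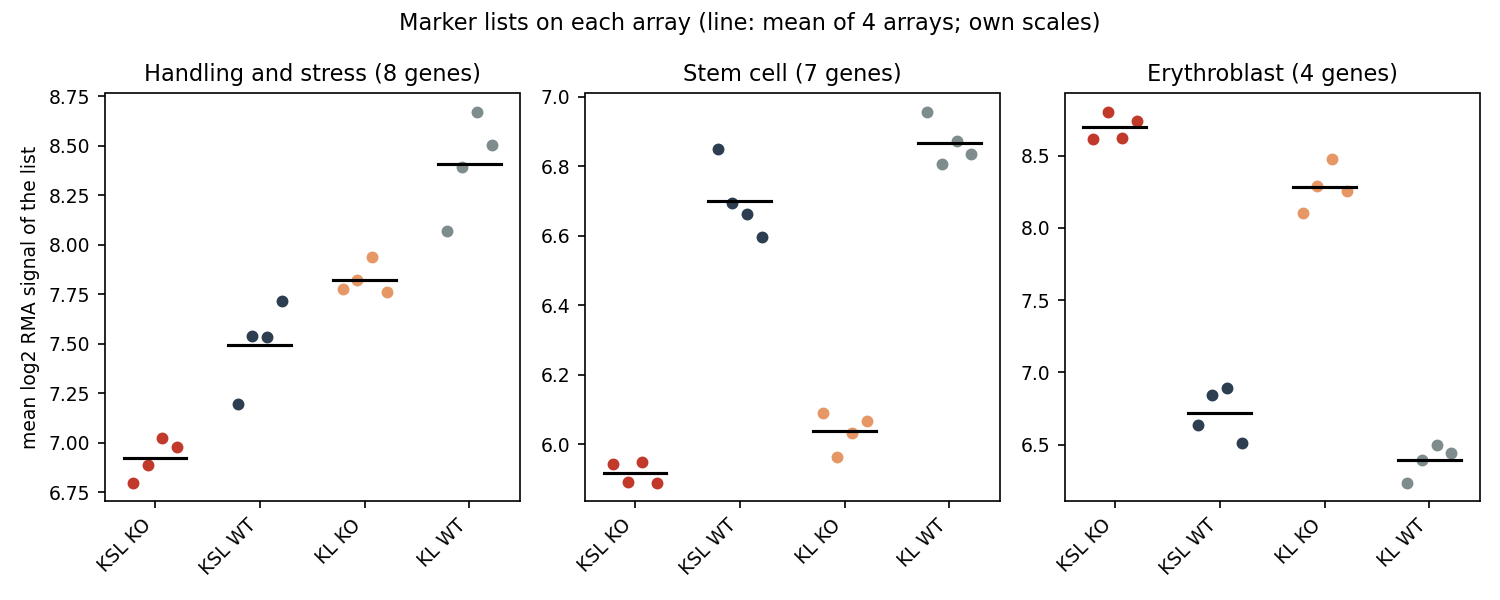
Mean log2 signal of 3 marker lists on each array (vertical axis, own scale in each panel) by cell type and genotype label. Points are arrays and lines the mean of 4 arrays; in each panel the null arrays lie apart from the WT arrays of the same cell type, lower for the handling and stem cell lists and higher for the erythroblast list.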

How the data were processed

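Total RNA of sorted KSL and KL cells was hybridised to 16 single-colour arrays, 4 for each cell type and genotype label. The deposited values are log2 signals that the authors made with RMA in Partek 6.6, per the submitters' processing notes. Other options and the genome build are not given in the sources used here. Of 72688 features, 32814 were listed with a gene, 30638 with 1 gene and 2176 with several. Where a gene had several probe sets (354 genes) the brightest was used, leaving 30176 genes. No RMA step was repeated, and 0 pairs of arrays were identical.

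Genotype labels were compared with limma 3.58.1 in R 4.3.3 on the 8 arrays of a cell type, and cell types and the interaction on all 16. On simulated data 194 of 200 genes shifted by 1 log2 unit were recovered for KSL and 192 of 200 for KL, by adjusted p alone without the fold minimum. Smaller shifts, such as the differences of Cdkn1a, were not simulated. Replicate numbers were shared by the groups and were not used in the fits. The replicates are called biological in the design text.

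All 10 genes were named. Of the regulators, the called genes with Mdm4 and Ppm1d were named, and of the other lists up to 5 called in KSL with the largest differences. Handling, stem cell and blood lineage markers were taken from general knowledge. Members and lists were chosen with earlier results of these arrays known. Alternatives were the replicate block, quantile normalization, a filter on genes under 6, mean probe sets, an intensity trend, the methods' t-test, a fit of all 16 arrays, and each array left out. Array number limits the precision. Promoter windows came from RefSeq, GRCm38.p6.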

Additional observations from a re-analysis of the deposited data

Results flagged for a closer look

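In groups of 4 arrays, 104 combinations of gene and group were checked for 1 array far from the other 3, and 7 were found. Chance alone gives about 1 in 20 groups. Bbc3 read 7.20 on the first array of KSL labelled WT, against 7.50 to 7.55 on the others, Zmat3 read 6.08 on that array, against 6.19 to 6.21, and Gadd45a read 7.56 there, against 7.75 to 7.79. Trp53inp1 read 6.76 on the third array of KSL labelled WT, against 7.30 to 7.34. Rhob read 8.99 on the fourth array of KSL labelled WT, against 8.83 to 8.85. Lyz2 read 7.96 on the first array of KSL labelled null, against 8.09 to 8.12. Sesn3 read 7.89 on the first array of KL labelled WT, against 7.34 to 7.40.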

How the results depend on the processing

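Of 925 values of the 10 genes under the alternatives, 914 kept or again missed the call by both thresholds, 11 lost a call and 0 reversed a called direction. Of the differences that were not called, 37 values changed sign. The 11 were Cdkn1a in KSL once, Cdkn1a in KL 5 times and Sesn1 between cell types under the null label 5 times, where quantile normalization gave -0.56. The log2 difference of Sesn1 stayed between -1.57 and -1.45 in KSL and between -1.41 and -1.31 in KL, and that of Trp53inp1 between -1.50 and -1.30 in KSL and between -1.14 and -0.91 in KL. With each array left out, 2 to 3 of the 10 genes were called in KSL and in KL. Of all 30176 genes, 1440 to 1559 were called in KSL and 1148 to 1268 in KL. Under the null label 0 to 1 of the 10 genes differed between cell types with an array left out, against 54 to 99 of all genes. After quantile normalization 0 of the 10 did, against 65 of all genes. Of all genes, 0 passed the interaction test, against 2 after quantile normalization and 0 to 6 with an array left out (6 without the fourth KL array labelled null). Under the WT label, 25 genes differed between cell types at both thresholds, against 9 to 62 with an array left out. Ccng1 and Phlda3 in KSL reached adjusted p values of 0.0478 and 0.0467 after quantile normalization, and Sesn1 between cell types under the WT label reached 0.0403 without KSL replicate 4. Causes were not tested.

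No source says that same-numbered arrays belong together. Their deviations from the group means correlated at -0.01 to 0.24 over 16 pairs, not all above 0.1, and in 9 of the 16 pairs an array correlated best with its own number, a hint from the data and not from the design. With the replicate number as a block, 3 of the 10 genes were called in KSL, of 1541 genes in all, and 3 in KL, of 1226 genes. The block changed no call of the 10 genes. The methods' t-test called 3 of the 10 in KSL, of 1382 genes in all, and 2 in KL, of 1080 genes.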
